A study of Homo sapiens with 6 samples.

Results

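Mitochondrial fusion and cristae genes were followed as a set of 10: MFN1, MFN2, OPA1, OMA1, YME1L1, STOML2, PLD6, APOOL, PHB and PHB2. They were taken by gene symbol from 24462 distinct symbols, as a list drawn up with earlier results of these data known, and each is listed on 1 line of the count files. All 10 passed the filter on low counts, as did 15386 genes in all. RNA was sequenced in 6 libraries, 2 per group, from cells labelled MDA-MB231, a triple-negative breast cancer line. The first group is labelled as ELK3 knockdown cells 48 hours after transfection with 1 µg of a plasmid that expresses wild-type ELK3 (pLenti-cMyc-DDK-ELK3), here the ELK3-labelled libraries. The second is labelled as the same knockdown cells 48 hours after 1 µg of the empty plasmid (pLenti-cMyc-DDK), here the vector-labelled libraries. The third is control cells that had been infected with a control retrovirus, with no lipid transfection recorded. Both plasmid groups carry a stable ELK3 knockdown made with retroviruses that deliver an shRNA, and the labels do not say whether that line is 1 clone. Replicates are not stated to be separate cultures either, and the spread that the tests use may be technical.

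Mitochondria fuse in steps. The mitofusins MFN1 and MFN2, GTPases of the outer membrane, tether and join that membrane, and OPA1, a dynamin-like GTPase of the inner membrane, joins the inner one and keeps the cristae, its folds, tight. OPA1 is cut into short forms by the proteases OMA1, which is activated by stress, and YME1L1, while prohibitins and the cardiolipin-binding protein STOML2 organise the membrane in which this happens. The series title names mitochondrial dynamics, so these genes bear on its question at the level of RNA alone; protein, cleavage of OPA1 and mitochondrial shape were not measured here.

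ELK3, the ETS-family transcription factor that was targeted, went against the labels. It had 20.4 and 22.6 CPM (counts scaled to a common library size by TMM) in the ELK3-labelled libraries, 758.9 and 697.2 CPM in the vector-labelled libraries, against 128.6 and 123.9 CPM in the controls. The column headers inside the files also go against the labels, since the vector-labelled libraries carry the header KD+E and the ELK3-labelled ones KD. Groups are named by the labels throughout, and exchanging them would exchange the first and second group and turn the sign of every difference between them. Markers of cell identity differed too. All 10 markers of MDA-MB-231 cells were lower in both plasmid groups than in the controls, with summed levels of 715.2 to 763.4 CPM in the ELK3-labelled libraries, 777.2 to 798.2 in the vector-labelled libraries and 5114 to 5325 in the controls. Of 10 markers of HEK293, a kidney-derived line, 8 were tested. In each plasmid group 7 were higher than in the controls, and 1, L1CAM, was lower. The list summed to 787.6 to 797.5 CPM in ELK3-labelled libraries, 361.8 to 369.7 in vector-labelled libraries and 90.76 to 96.55 in the controls. STMN2 and PAX2 were at 0 in the controls but low elsewhere too. STMN2 read 0.159 and 0 CPM in the ELK3-labelled libraries, and 1.76 and 1.00 in the vector-labelled ones. PAX2 read 1.59 and 2.76 CPM in the ELK3-labelled libraries, and 1.18 and 0.80 in the vector-labelled ones. CDKN2A, which MDA-MB-231 cells have lost by deletion, read 174.8 and 174.7 CPM in the ELK3-labelled libraries, 200.4 and 235.5 in the vector-labelled libraries, and in the controls 13.4 and 17.6. The labelled treatment, the transfection and a possible difference in cell line therefore cannot be told apart in any contrast with the controls. Between the plasmid groups some cell markers differed as well, not all in 1 direction. Of the 8 tested HEK293 markers, 4 were higher and 0 lower in ELK3-labelled than in vector-labelled libraries. Over all genes tested, 30% were higher and 29.6% lower in that comparison. Of the 10 MDA-MB-231 markers, 3 were higher and 3 lower. MTAP, also lost by deletion in MDA-MB-231, read 30.1 and 26.6 CPM in the ELK3-labelled libraries against 12.2 and 12.0 CPM in the vector-labelled ones. CDKN2A went the other way and was lower in the ELK3-labelled libraries. What part the markers have in the members' differences between the plasmid groups was not tested. Liver transcripts were present everywhere: 6 hepatocyte markers summed to 5303 to 5603 CPM in the ELK3-labelled libraries, 6515 to 7007 in the vector-labelled libraries and 6554 to 6777 in the controls. Library totals ran from 4884483 to 9131214 counts, and replicates differed by more than counting error in every group.

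Promoter stretches are shown because the targeted factor belongs to a family that binds a known core. MFN1, STOML2, OPA1, MFN2 and APOOL were picked since they moved together or apart in the comparisons that follow. Whether a motif goes with a direction of change was not tested. PHB2 also holds the ETS core but is not shown. Its log2 fold change over controls was 0.11, not called, in ELK3-labelled libraries and -0.23, called lower, in vector-labelled libraries. The stretches shown are RefSeq sequences on GRCh38.p14, each 150 bases long and written 5′ to 3′ on the gene's strand. Each runs from 130 bases before the annotated transcript start to base 20 after it. Capitals mark the exact letters CCGGAAG, used here as the ETS core (or CTTCCGG for a match on the other strand). They also mark the core TGCGCA of the NRF1 site, which reads the same on both strands. The stretches lie at chr3:179347579-179347728 (plus strand, MFN1), chr9:35103176-35103325 (minus, STOML2), chr3:193593078-193593227 (plus, OPA1), chr1:11980314-11980463 (plus, MFN2) and chrX:85003747-85003896 (plus, APOOL).
MFN1: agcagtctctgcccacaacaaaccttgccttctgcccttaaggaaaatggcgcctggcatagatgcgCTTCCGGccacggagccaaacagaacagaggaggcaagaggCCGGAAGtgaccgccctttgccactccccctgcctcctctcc
STOML2: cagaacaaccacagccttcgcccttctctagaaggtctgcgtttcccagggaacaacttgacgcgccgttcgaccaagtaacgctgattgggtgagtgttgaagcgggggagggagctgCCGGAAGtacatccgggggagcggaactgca
OPA1: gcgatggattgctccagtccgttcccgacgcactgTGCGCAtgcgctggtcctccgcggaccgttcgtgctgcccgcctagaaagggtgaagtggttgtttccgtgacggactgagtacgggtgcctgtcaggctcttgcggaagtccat
MFN2: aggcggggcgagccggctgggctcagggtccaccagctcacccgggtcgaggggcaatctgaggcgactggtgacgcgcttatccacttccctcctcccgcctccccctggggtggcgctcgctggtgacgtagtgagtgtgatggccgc
APOOL: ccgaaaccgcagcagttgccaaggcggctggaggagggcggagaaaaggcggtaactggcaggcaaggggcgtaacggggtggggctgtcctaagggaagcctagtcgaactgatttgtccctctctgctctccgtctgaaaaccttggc

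Windows of 300 bases (250 before the start and 50 after it) were at hand for 8 members, that is all but YME1L1 and PLD6. The ETS core was searched only as the exact letters CCGGAAG on both strands, and was found in the windows of MFN1, STOML2 and PHB2. In MFN1 it stands on both strands, with first bases at -63 and -22 from the start, and in the STOML2 stretch shown once, at -11. PHB2 has 2 annotated starts, and its matches lie at -247 and -189 from one of them. The NRF1 core was found in OPA1 (first base at -95), OMA1 (-23) and PHB (-3), and neither motif in MFN2 or APOOL. Over all 35116 RefSeq windows of that length, 10.3% hold the ETS core and 8.24% the NRF1 core. Counted by gene, as the members are here, 12.2% of 27305 genes hold the ETS core in any window and 9.76% the NRF1 core. No member held both motifs. Other forms of either site were not searched, so a missing match is not the absence of a site. A match describes letters only, and binding was not measured here.

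Between ELK3-labelled libraries and controls, the mitofusins went opposite ways, OPA1, STOML2 and PLD6 were lower, APOOL was higher, and the proteases and prohibitins did not pass the test. Of the 10 members, 2 were higher, 4 lower and 4 not called at an adjusted p under 0.05. Over all genes tested 62.6% were called, 31.8% higher and 30.8% lower, so 6 of 10 members is near the background. Between vector-labelled libraries and controls, all 10 members were called, 4 higher and 6 lower, against 72.3% of all genes (37% higher, 35.3% lower). Between the ELK3-labelled and the vector-labelled libraries, 9 of 10 were called, 5 higher and 4 lower, against 59.6% of all genes (30% higher, 29.6% lower). The members' median absolute log2 fold change was 0.52, 0.94 and 0.72 in these comparisons, in that order, beside 0.59, 0.85 and 0.53 over all genes. Both contrasts with the controls share the control libraries, and each plasmid group enters 2 contrasts. In bulk RNA, fewer cells that express a gene and less RNA per cell cannot be told apart.

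**Figure D1:**
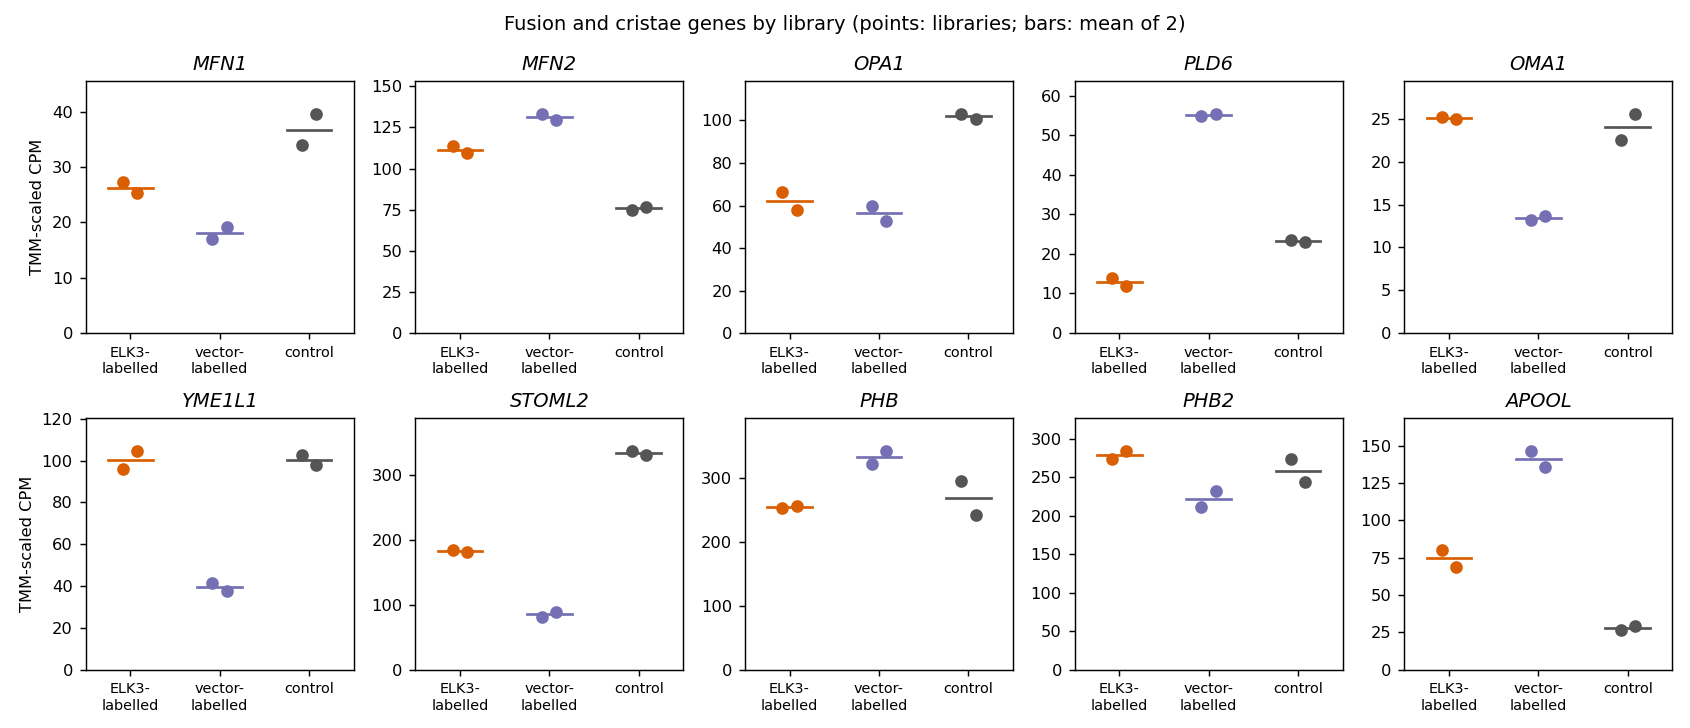
Levels of the 10 fusion and cristae genes in each library, in TMM-scaled CPM on linear axes that start at 0; points are libraries (2 per group) and bars are group means. The vector-labelled libraries are lowest for MFN1, OMA1, YME1L1, STOML2 and PHB2 and highest for MFN2, PLD6, PHB and APOOL.

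The outer-membrane fusion GTPases moved in opposite directions in every comparison. MFN1 had 27.2 and 25.3 CPM in the ELK3-labelled libraries, 17.0 and 19.2 CPM in the vector-labelled libraries, against 33.9 and 39.6 CPM in the controls. No 2 groups overlapped, with controls highest and vector-labelled libraries lowest. Its log2 fold change against the controls was -0.49 ± 0.14 (SE) in the ELK3-labelled libraries (adjusted p = 0.00352) and -1.03 ± 0.16 in the vector-labelled libraries (adjusted p = 5.11e-07), by edgeR's quasi-likelihood test with Benjamini-Hochberg adjustment over all genes. Between ELK3-labelled and vector-labelled libraries it was 0.54 ± 0.15 (adjusted p = 0.00312). The first of these calls ended without control replicate 2 (adjusted p = 0.0615) and the last when vector-labelled replicate 1 was left out (adjusted p = 0.0551).

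MFN2, which also tethers mitochondria to the endoplasmic reticulum, had 113.7 and 109.2 CPM in the ELK3-labelled libraries, 133.2 and 129.3 CPM in the vector-labelled libraries, against 75.1 and 76.3 CPM in the controls. Controls were lowest here, below all 4 plasmid libraries. MFN2 was 1.47-fold higher than the controls in the ELK3-labelled libraries (log2 fold change 0.56 ± 0.09, adjusted p = 5.37e-06) and 1.74-fold higher in the vector-labelled libraries (0.79 ± 0.10, adjusted p = 5.22e-09). Its difference between ELK3-labelled and vector-labelled libraries was small, -0.24 ± 0.09 (adjusted p = 0.0204). That call ended with DESeq2 (adjusted p = 0.0777), with no filter (0.12), and without ELK3-labelled replicate 1 (0.0546), ELK3-labelled replicate 2 (0.154), vector-labelled replicate 1 (0.134) or vector-labelled replicate 2 (0.0613). In this comparison the 6 hepatocyte markers were all lower as well, with a median of -0.30; their part in the result was not tested.

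Set against each other within a library, which removes any scaling, MFN2 and MFN1 gave a count ratio of 4.18 and 4.32 in the ELK3-labelled libraries, 7.82 and 6.73 in the vector-labelled libraries, against 2.22 and 1.93 in the controls. The exact 95% binomial intervals of these ratios did not overlap between groups: 3.53 to 4.97 and 3.74 to 4.99 in the ELK3-labelled libraries, 6.44 to 9.57 and 5.42 to 8.43 in the vector-labelled libraries, and 1.84 to 2.68 and 1.61 to 2.32 in the controls. Intervals cover counting error only, and with 2 against 2 libraries an exact two-sided permutation test cannot go below p = 0.333, so none is given. A ratio shows unequal change, not which gene changed, and is no comparison of transcript levels between the genes.

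OPA1 had 66.2 and 58.0 CPM in the ELK3-labelled libraries, 59.9 and 52.6 CPM in the vector-labelled libraries, against 103.1 and 100.6 CPM in the controls. Both plasmid groups lay below both controls and overlapped each other. OPA1 fell by 0.72 on the log2 scale in the ELK3-labelled libraries (SE 0.10, adjusted p = 2.32e-07) and by 0.85 in the vector-labelled libraries (SE 0.11, adjusted p = 1.23e-08). The ELK3-labelled and vector-labelled libraries did not differ beyond their spread (0.13 ± 0.11, 95% interval -0.09 to 0.35, adjusted p = 0.306). The antisense gene OPA1-AS1, whose exons overlap those of OPA1, had at most 10 counts in any library. Per count of MFN2, OPA1 gave 0.582 and 0.532 counts in the ELK3-labelled libraries, 0.450 and 0.407 in the vector-labelled libraries, against 1.37 and 1.32 in the controls.

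**Figure D2:**
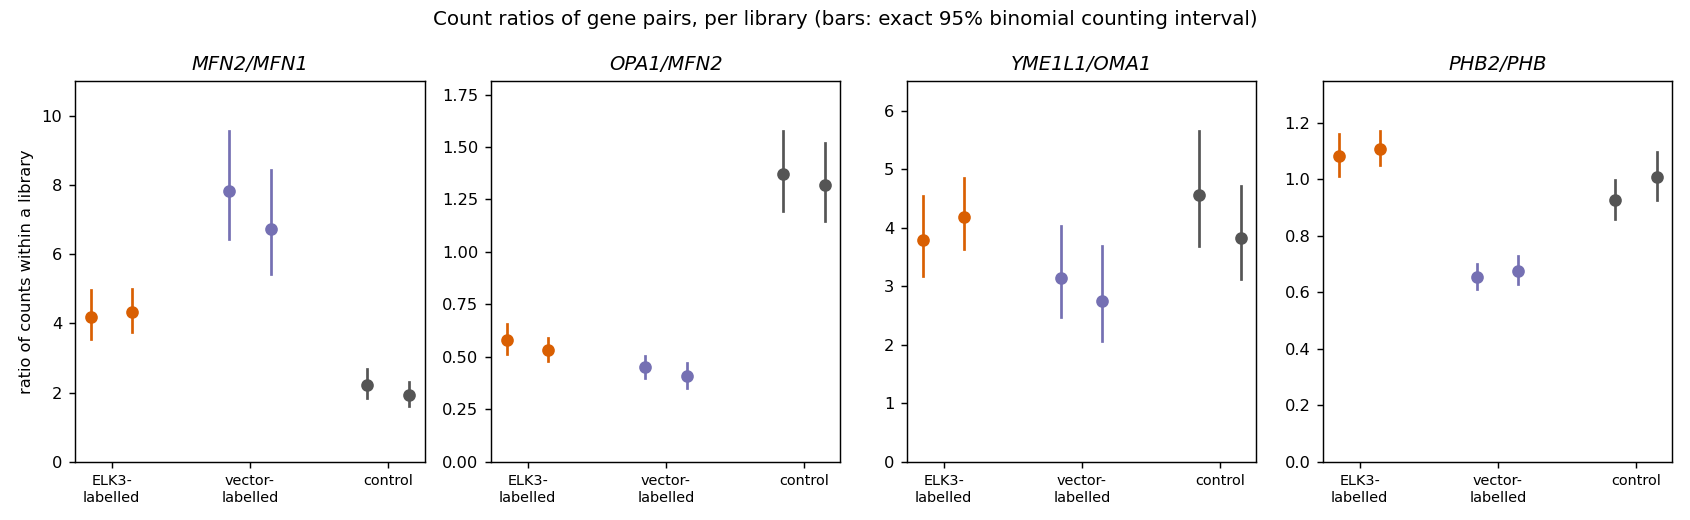
Ratios of raw counts within each library for MFN2 to MFN1, OPA1 to MFN2, YME1L1 to OMA1 and PHB2 to PHB, on linear axes from 0; points are libraries and vertical lines exact 95% binomial counting intervals. The MFN2 to MFN1 ratio is 4.18 and 4.32 in the ELK3-labelled libraries, 7.82 and 6.73 in the vector-labelled libraries, against 2.22 and 1.93 in the controls.

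PLD6, an outer-membrane phospholipase that makes phosphatidic acid from cardiolipin and promotes mitofusin-driven fusion, was called in opposite directions against the controls. It had 14.0 and 12.01 CPM in the ELK3-labelled libraries, 54.9 and 55.4 CPM in the vector-labelled libraries, against 23.6 and 23.0 CPM in the controls. No 2 groups overlapped, and replicates lay close together in each. Its log2 fold change was -0.86 ± 0.16 in the ELK3-labelled libraries over controls (adjusted p = 2.78e-05) and 1.24 ± 0.14 in the vector-labelled libraries over controls (adjusted p = 1.29e-09). Between ELK3-labelled and vector-labelled libraries it was 4.28-fold lower (-2.10 ± 0.14, adjusted p = 2.09e-14), the largest fold among the 10 members in that comparison. ELK3 itself has the same order of groups, vector-labelled over control over ELK3-labelled. The group means of PHB have that order too, and the share of all genes with it was not counted. PLD6 shares exon sequence with AC055811.2 on the same strand, for which no counts were used here, and with MPRIP on the opposite strand, and the strand setting of the counting is not given in the sources used here. MPRIP had 508 and 680 counts in the ELK3-labelled libraries, 616 and 401 in the vector-labelled libraries, against 775 and 766 in the controls.

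The OPA1-processing proteases were both lower in the vector-labelled libraries than in either other group. YME1L1, an ATP-dependent protease of the inner membrane, had 96.0 and 104.8 CPM in the ELK3-labelled libraries, 41.6 and 37.4 CPM in the vector-labelled libraries, against 102.9 and 97.8 CPM in the controls. ELK3-labelled libraries and controls overlapped, and the vector-labelled libraries stood well under both. YME1L1 was 2.53-fold lower in the vector-labelled libraries than in the controls (-1.34 ± 0.11, adjusted p = 5.57e-13) and 2.54-fold higher in the ELK3-labelled than in the vector-labelled libraries (1.34 ± 0.10, adjusted p = 7.18e-13). Between ELK3-labelled libraries and controls no difference was detectable (0.00 ± 0.10, 95% interval -0.19 to 0.20, adjusted p = 0.972), and the sign of that value changed under 6 of the alternatives. MASTL, whose exons overlap those of YME1L1 on the other strand, had 185 and 287 counts in the ELK3-labelled libraries, 186 and 159 in the vector-labelled libraries, against 175 and 206 in the controls.

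OMA1, the stress-activated metalloprotease, had 25.3 and 24.98 CPM in the ELK3-labelled libraries, 13.2 and 13.6 CPM in the vector-labelled libraries, against 22.6 and 25.6 CPM in the controls. Here too only the vector-labelled libraries stood apart. OMA1 fell by 0.85 on the log2 scale in the vector-labelled libraries against controls (SE 0.17, adjusted p = 6.37e-05), and was 1.87-fold higher in ELK3-labelled than in vector-labelled libraries (0.91 ± 0.16, adjusted p = 1.46e-05). Against controls, the ELK3-labelled libraries gave 0.06 ± 0.15 (95% interval -0.25 to 0.38, adjusted p = 0.745), and -0.03 without control replicate 1. YME1L1 to OMA1 count ratios were 3.80 and 4.20 in the ELK3-labelled libraries, 3.14 and 2.75 in the vector-labelled libraries, against 4.56 and 3.82 in the controls. Counting intervals overlapped for every pair of libraries from different groups except vector-labelled replicate 2 (2.073 to 3.685) and control replicate 1 (3.692 to 5.664). DAB1, whose exons overlap those of OMA1 on the same strand, had 17 and 18 counts in the ELK3-labelled libraries, 11 and 14 in the vector-labelled libraries and 0 in both controls, and how shared reads were assigned is not given in the sources used here.

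STOML2, which binds prohibitins and cardiolipin and holds YME1L1 in a complex with the protease PARL, had 185.1 and 182.2 CPM in the ELK3-labelled libraries, 82.0 and 89.8 CPM in the vector-labelled libraries, against 338.2 and 331.4 CPM in the controls. The 3 groups were far apart relative to their replicates. It was 1.82-fold lower than the controls in the ELK3-labelled libraries (-0.87 ± 0.08, adjusted p = 6.22e-11) and 3.91-fold lower in the vector-labelled libraries (-1.97 ± 0.09, adjusted p = 1.59e-19). Between ELK3-labelled and vector-labelled libraries STOML2 was 2.14-fold higher (1.10 ± 0.09, adjusted p = 2.06e-12). STOML2 and YME1L1 did not keep one ratio: their counts stood at 1.93 and 1.74 in the ELK3-labelled libraries, 1.97 and 2.40 in the vector-labelled libraries, against 3.29 and 3.39 in the controls.

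**Figure D3:**
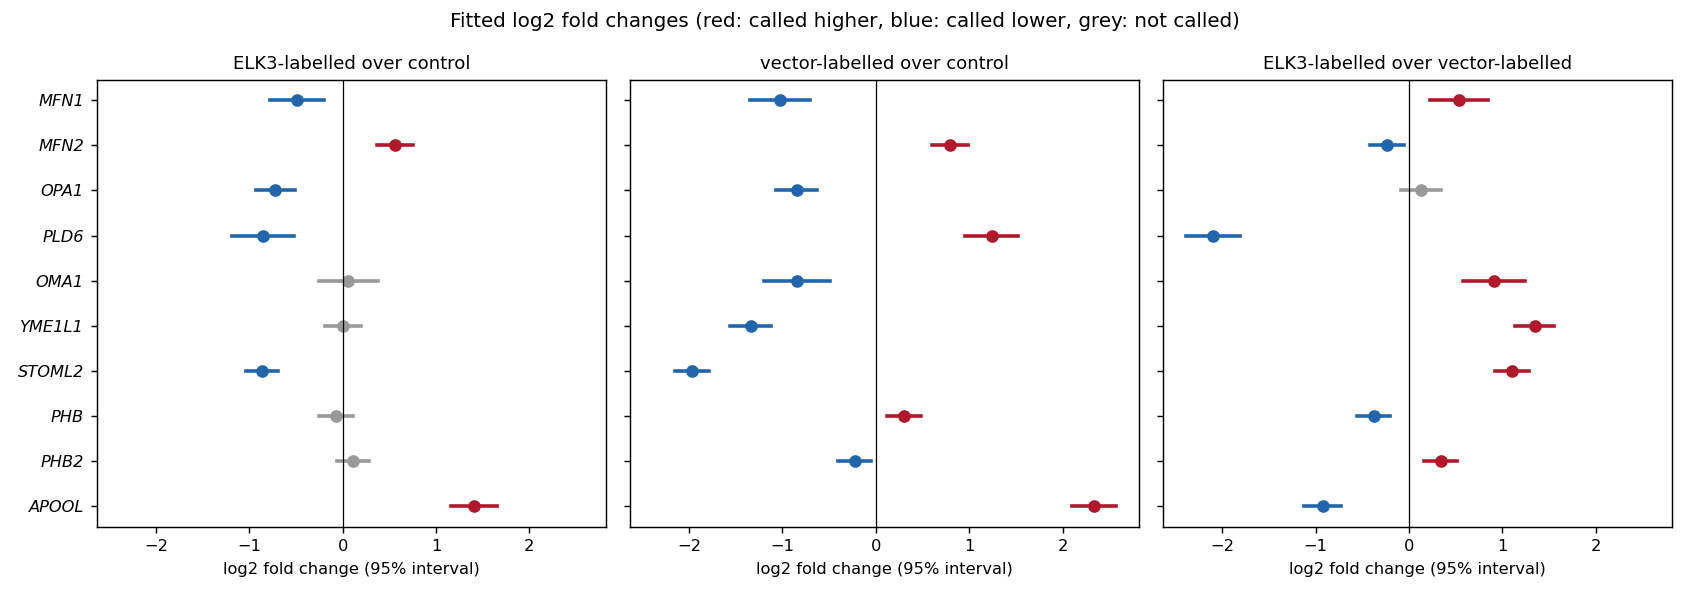
Log2 fold changes of the 10 members in the 3 comparisons, from edgeR's quasi-likelihood fit; points are estimates, horizontal lines 95% intervals, red marks genes called higher, blue lower and grey not called. Only APOOL and MFN2 lie to the right in both contrasts with the controls, and OPA1, STOML2 and MFN1 to the left in both.

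Prohibitins changed little, and in opposite directions. PHB and PHB2 encode partners that assemble into rings in the inner membrane, restrain its proteases and stabilise long OPA1. PHB had 253.3 and 256.7 CPM in the ELK3-labelled libraries, 321.7 and 342.6 CPM in the vector-labelled libraries, against 295.5 and 241.7 CPM in the controls. The controls differed most from each other and spanned both ELK3-labelled libraries. PHB was called higher in the vector-labelled libraries than in the controls (0.31 ± 0.09, adjusted p = 0.00297), but leaving out vector-labelled replicate 2 ended the call (0.24, adjusted p = 0.0541), as did leaving out control replicate 2 (0.15, adjusted p = 0.197). Between ELK3-labelled and vector-labelled libraries it was -0.38 ± 0.09 (adjusted p = 0.000397). ELK3-labelled libraries over controls gave -0.08 ± 0.09 (95% interval -0.26 to 0.11, adjusted p = 0.479); the value was 0.08 with library totals alone and 0.07 without control replicate 1, and PHB passed the test as lower without control replicate 2 (-0.22, adjusted p = 0.0498). GENCODE 29 lists 21 pseudogenes named after PHB, none of them in the count files, and how reads shared with them were counted is not given in the sources used here.

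PHB2 had 274.1 and 284.6 CPM in the ELK3-labelled libraries, 210.8 and 231.9 CPM in the vector-labelled libraries, against 273.5 and 243.9 CPM in the controls. The vector-labelled libraries were lowest. PHB2 was 1.26-fold higher in ELK3-labelled than in vector-labelled libraries (0.34 ± 0.09, adjusted p = 0.00102). Its lower level in vector-labelled libraries than in controls (-0.23 ± 0.09, adjusted p = 0.0208) was lost with library totals (-0.09, adjusted p = 0.338), with a filter of 10 CPM (-0.13, adjusted p = 0.187), and when vector-labelled replicate 1 (adjusted p = 0.204) or control replicate 1 (adjusted p = 0.172) was left out. ELK3-labelled libraries over controls gave 0.11 ± 0.09 (95% interval -0.06 to 0.29, adjusted p = 0.264), which passed with library totals (0.27, adjusted p = 0.00635). As a pair, PHB2 to PHB counts stood at 1.08 and 1.11 in the ELK3-labelled libraries, 0.655 and 0.677 in the vector-labelled libraries, against 0.926 and 1.01 in the controls. The counting intervals of the vector-labelled libraries, 0.613 to 0.701 and 0.628 to 0.730, lay below those of the other 4 libraries, the lowest of which began at 0.858. SCARNA12, a small RNA gene that overlaps PHB2 exons on the same strand, had 1 to 9 counts per library.

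APOOL, the cardiolipin-binding MICOS subunit also called MIC27, which shapes cristae at their necks, changed most against the controls. It had 80.5 and 69.1 CPM in the ELK3-labelled libraries, 146.8 and 135.5 CPM in the vector-labelled libraries, against 26.8 and 29.2 CPM in the controls. All 3 groups were apart. APOOL was 2.66-fold higher than the controls in the ELK3-labelled libraries (1.41 ± 0.12, adjusted p = 3.47e-12) and 5.05-fold higher in the vector-labelled libraries (2.34 ± 0.12, adjusted p = 1.7e-18). It was 1.90-fold lower in the ELK3-labelled than in the vector-labelled libraries (-0.93 ± 0.10, adjusted p = 6.2e-10). SATL1, which overlaps it on the opposite strand, had 1 to 22 counts per library.

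The orders of the groups fell into a few kinds. ELK3-labelled libraries lay between the other groups for MFN1 and STOML2, which were highest in controls, and for MFN2 and APOOL, which were highest in the vector-labelled libraries. OMA1, YME1L1 and PHB2 were lowest in the vector-labelled libraries, with ELK3-labelled libraries and controls not told apart. PHB was highest there, again with the other groups not told apart. Some of these orders rest on calls of MFN1, MFN2, PHB and PHB2 that ended under alternatives given above. OPA1 was highest in the controls with the plasmid groups not told apart, and PLD6 was the member called in opposite directions against the controls. Against the controls, 2 members were called higher and 3 lower in both plasmid groups. These contrasts share the controls, and the share of all genes called the same way in both was not counted.

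For the fusion GTPases, the 3 genes with the nearest profile over the 6 libraries were sought among 8022 genes with a mean of at least 20 CPM, by Euclidean distance of centred log2 CPM. For OPA1 they were PPRC1, a coactivator of the PGC-1 family (distance 0.11 log2 units), POLG, the polymerase of mitochondrial DNA (0.12), and PPIB, a cyclophilin of the endoplasmic reticulum (0.145). POLG averaged 47.9 CPM in the ELK3-labelled libraries, 42.5 in the vector-labelled libraries and 79.1 in the controls. TANC1 (0.11), the kinesin gene KIF3B (0.12) and the ubiquitin ligase gene CUL4A (0.14) were nearest to MFN1. Nearest to MFN2 were KANSL1 (0.07) and CHD8 (0.08), which encode chromatin proteins, and the splicing factor gene WBP11 (0.09). Among the members themselves the closest pair was MFN1 and OPA1, at 0.50, which is not comparable with the best of so many candidates. With 3 groups of 2 libraries, such a distance mainly compares 3 group means.

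Genes around these members were described in 4 lists of 43 genes, all of which were tested, and no list has a test of its own. Over the 43, 16 were higher and 15 lower in ELK3-labelled libraries than in controls (median 0.02), 15 higher and 18 lower in vector-labelled libraries than in controls (median -0.11), and 18 higher and 10 lower in ELK3-labelled than in vector-labelled libraries (median 0.09). Medians over all genes tested were 0.02, 0.05 and -0.02. Of all genes tested, 31.8% were higher and 30.8% lower in the first of these comparisons, 37% and 35.3% in the second and 30% and 29.6% in the third, and the counts of each list that follow stand beside these shares.

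The MICOS complex, to which APOOL belongs, and the SAM complex it contacts were split. Of 11 genes, 4 were higher and 4 lower in the ELK3-labelled libraries than in controls, 5 higher and 3 lower in the vector-labelled libraries than in controls, and 2 higher and 3 lower in ELK3-labelled than in vector-labelled libraries. APOO, the paralogue of APOOL in MICOS, had 55.0 and 65.7 CPM in the ELK3-labelled libraries, 58.0 and 60.8 in the vector-labelled libraries, against 35.1 and 31.6 in the controls. It was higher than the controls in both (0.86 ± 0.12, adjusted p = 2.13e-07, and 0.83 ± 0.13, adjusted p = 4.86e-07), without the further difference between the plasmid groups that APOOL showed (0.03 ± 0.11, adjusted p = 0.807). MTX2, an outer-membrane metaxin of the SAM complex, had 30.8 and 28.6 CPM in the ELK3-labelled libraries and only 10.3 and 10.8 CPM in the vector-labelled libraries, with 44.8 and 46.0 CPM in the controls. DNAJC11 was 1.22 ± 0.11 higher on the log2 scale in vector-labelled libraries than in controls (adjusted p = 5.7e-12), and CHCHD6 was lower in ELK3-labelled than in vector-labelled libraries (-0.68 ± 0.15, adjusted p = 0.000318). IMMT, the scaffold of MICOS, named here after its values were seen, had 129.9 and 125.7 CPM in the ELK3-labelled libraries, 97.1 and 83.4 in the vector-labelled libraries, against 142.6 and 159.6 in the controls. Without control replicate 2, 2 genes of the list in place of 4 were lower in ELK3-labelled libraries than in controls, and likewise 2 with library totals.

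Of 13 partners of the proteases and prohibitins in the inner membrane, 9 were lower and 2 higher in vector-labelled libraries than in controls (median -0.54), and 8 were higher and 2 lower in ELK3-labelled than in vector-labelled libraries (median 0.33). In ELK3-labelled libraries against controls, 6 were lower and 3 higher (median -0.16). HTRA2, a protease of the intermembrane space, had 34.5 and 32.6 CPM in the ELK3-labelled libraries, 23.6 and 20.6 in the vector-labelled libraries, against 59.4 and 58.9 in the controls. LETM1, an ion exchanger needed for normal cristae, was 0.82 ± 0.10 higher in ELK3-labelled than in vector-labelled libraries (adjusted p = 1.93e-08), and SPG7, a subunit of the m-AAA protease, was lower there (-0.59 ± 0.11, adjusted p = 1.83e-05). C2orf47 (MAIP1) was lower in ELK3-labelled libraries than in controls (-1.16 ± 0.20, adjusted p = 4.47e-06). ATAD3B was higher in ELK3-labelled libraries than in controls (1.17 ± 0.20, adjusted p = 4.25e-06) and ATAD3A in vector-labelled libraries than in controls (0.83 ± 0.14, adjusted p = 3.47e-06, but 0.54 without control replicate 2). These ATAD3 genes are near-identical, so the split of their reads is uncertain. Without control replicate 1, 4 genes in place of 2 were higher in vector-labelled libraries than in controls, as also with library totals and with a filter of 10 CPM; without ELK3-labelled replicate 2, 1 in place of 2 was lower in ELK3-labelled than in vector-labelled libraries.

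Of 10 regulators of fusion on the outer membrane, 6 were higher and 2 lower in ELK3-labelled libraries than in controls, 6 higher and 3 lower in vector-labelled libraries than in controls, and 3 higher and 4 lower in ELK3-labelled than in vector-labelled libraries. MUL1, a ubiquitin ligase that targets MFN2, had 27.2 and 25.8 CPM in the ELK3-labelled libraries, 7.93 and 6.60 in the vector-labelled libraries, against 22.2 and 17.4 in the controls. GDAP1, an outer-membrane protein of the fission side, was higher in ELK3-labelled libraries than in controls (1.61 ± 0.21, adjusted p = 6.17e-08), and FAM73B (MIGA2), a mitofusin-binding fusion factor, was lower there (-0.90 ± 0.20, adjusted p = 0.000272). PARK2, the ligase parkin, was called higher in vector-labelled libraries than in controls (adjusted p = 0.00103) and lower in ELK3-labelled than in vector-labelled libraries (adjusted p = 0.0394) on few counts, 6 and 13 in the ELK3-labelled libraries, 19 and 13 in the vector-labelled libraries, against 1 and 3 in the controls. The second of these calls ended without any single library, at adjusted p of 0.0534 to 0.208. Without ELK3-labelled replicate 2, 3 genes of the list were higher and 1 lower in ELK3-labelled libraries than in controls; 1 was lower without control replicate 2, with library totals and with DESeq2.

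Cardiolipin is the lipid that OPA1, STOML2, APOOL and PLD6 bind or use. Of 9 genes for its synthesis and transport, 3 were higher and 3 lower in ELK3-labelled libraries than in controls, 2 higher and 3 lower in vector-labelled libraries than in controls, and 5 higher and 1 lower in ELK3-labelled than in vector-labelled libraries. PRELID1 and TRIAP1 encode partners that carry phosphatidic acid to the inner membrane. PRELID1 had 411.2 and 427.5 CPM in the ELK3-labelled libraries, 221.4 and 216.9 in the vector-labelled libraries, against 633.9 and 619.7 in the controls. TRIAP1 ran the other way, with 157.3 and 192 CPM in the ELK3-labelled libraries, 292.6 and 312.2 in the vector-labelled libraries, against 129.9 and 135.5 in the controls. TAZ, here the cardiolipin remodelling enzyme tafazzin, was higher in ELK3-labelled libraries than in controls (1.34 ± 0.17, adjusted p = 4.08e-08) and than in vector-labelled libraries (1.20 ± 0.16, adjusted p = 1.45e-07). Without ELK3-labelled replicate 1, with library totals and with DESeq2, 1 gene of the list in place of 3 was lower in ELK3-labelled libraries than in controls.

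**Figure D4:**
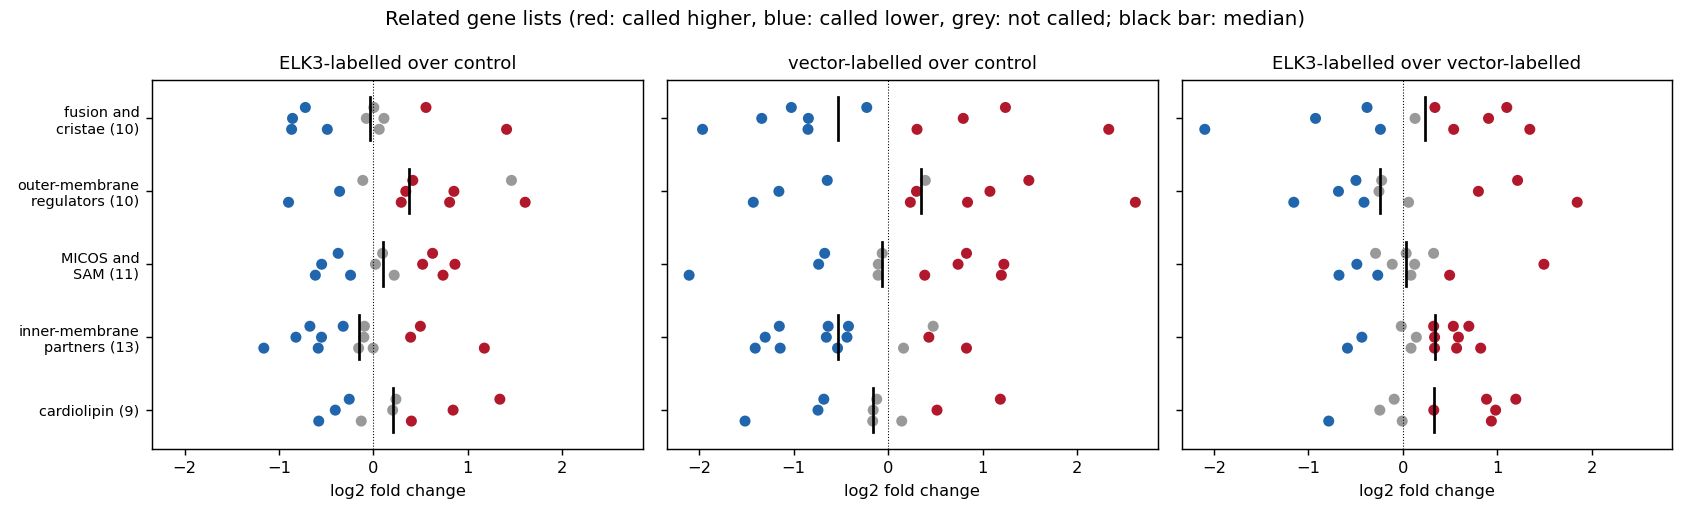
Log2 fold changes of the 10 members and of the genes of 4 related lists (numbers of genes in parentheses) in the 3 comparisons; each point is a gene, red called higher, blue lower, grey not called, and black bars are medians. Inner-membrane partners have their median at -0.54 in vector-labelled libraries over controls and at 0.33 in ELK3-labelled over vector-labelled libraries.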

How the data were processed

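The authors deposited unscaled read counts, a file per library with a line for each gene symbol. Per the submitters' processing notes, Bowtie2, edgeR and the build hg19 were used, without versions; per the labels' protocols, libraries were made from total RNA with a Lexogen Quant-Seq kit. The counting tool, annotation, strand setting and filters are not given in the sources used here. Each file has 25737 lines; 1561 lines of 286 symbols on several lines were summed.

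The test was edgeR 4.0.16 under R 4.3.3 (filterByExpr, TMM, robust quasi-likelihood fit of all 6 libraries with a mean per group, 3 residual degrees of freedom, common biological coefficient of variation 0.0645). Two-sided p-values were corrected for 15386 genes (Benjamini-Hochberg), and a gene under 0.05 is called. CPM are TMM-scaled. DESeq2 1.42.0 and limma 3.58.1 served as alternatives; Python 3.11.15 read files and drew plots. A floor of 3 counts was 0.329 to 0.614 CPM over the libraries, computed from library totals without TMM.

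Members, lists and tests were chosen with earlier results of these data known. Named besides the members were, per list and comparison, the called gene with the largest change in each direction, and the nearest profiles. Promoters come from RefSeq (GRCh38.p14), overlaps from GENCODE 29 (GRCh38), used for names only since the counts rest on hg19. An overlap anywhere in the exons was taken, and whether reads fall in the shared part was not tested.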

Additional observations from a re-analysis of the deposited data

How the results depend on the processing

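The 30 log2 fold changes of members were recomputed under 15 alternatives, and of these 450 values 425 kept direction and side of the threshold, 14 lost the call, 2 gained it and 9 changed sign. The sign changes were all in ELK3-labelled libraries over controls, in values not called: YME1L1 became -0.0016 with DESeq2 size factors, -0.0029 with DESeq2 and -1e-04 without symbols on several lines, and PHB 0.0848 with library totals. Leaving out 1 library at a time gave -0.0651 to 0.0631 for YME1L1, -0.0293 to 0.145 for OMA1 and -0.22 to 0.0748 for PHB. The cause was not tested. Counts of called members ranged over all alternatives from 2 to 3 higher and stayed at 4 lower in ELK3-labelled libraries over controls, from 3 to 4 higher and 5 to 6 lower in vector-labelled libraries over controls, and from 4 to 5 higher and 3 to 4 lower in ELK3-labelled over vector-labelled libraries. Genes called ranged from 7922 to 9817, 8919 to 11721 and 7193 to 9704 in these comparisons. With library totals the median of all genes over controls was 0.18 in both plasmid groups, against 0.02 and 0.05 with TMM, and 61.1% in place of 50.8% of the calls in ELK3-labelled libraries over controls were higher. Related lists and genes were put through the same alternatives after the data were seen; 346 of 360 list counts stayed within 1.5 times.

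Replicate numbers pair nothing that the labels state, and deviations of same-numbered libraries correlated at -0.23, 0.12 and -0.02 between groups. With the replicate block, 9531, 11057 and 9051 genes were called in the 3 comparisons, against 9633, 11117 and 9174, and every member kept its call, while that of PARK2 between the plasmid groups was lost (adjusted p = 0.0505). Leaving out a library leaves a group with 1 sample, assumed to vary like the others. Depth limits the members with the fewest counts, OMA1 (68 to 235 per library), MFN1 (96 to 238) and PLD6 (88 to 374).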
